A study of Mus musculus with 24 samples.

Results

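The livers described here came from female p16-3MR mice, 3 given ganciclovir (GCV; mice 31, 33 and 35) and 3 given vehicle (VEH; mice 27, 28 and 29), which are 6 of the 24 livers in the series. They were chosen by the genotype, sex and treatment in their labels, and no measured value entered the choice. The series was built to compare the response to removal of p16+ cells between the sexes, and its other livers came from p16-3MR males and from wild-type mice of both sexes. All 6 mice carried the p16-3MR transgene and were left to age. From 16 to 18 months of age they were injected intraperitoneally on 5 consecutive days of each month with GCV in pH11 water, or with pH11 water alone as VEH, and the livers were taken at about 28 months. The GCV dose stands as 150 mg/kg in the labels and as 25 mg/kg in the published protocol, and the difference could not be settled from the files. In this model a 3MR cassette that includes herpes simplex virus thymidine kinase sits in the p16Ink4a locus on a bacterial artificial chromosome, so the enzyme is not tied to a single cell type. Both groups carried it, so in these 6 livers an effect of GCV that does not need the transgene cannot be told apart from an effect that does. All 6 libraries belong to batch 1, and the design text calls the 3 livers of a group biological replicates.

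The p16Ink4a protein, encoded by Cdkn2a, blocks cyclin-dependent kinases and is a common marker of cells that have stopped dividing for good. Thymidine kinase of the virus phosphorylates GCV, and the product kills the cell that made it. Besides hepatocytes, the liver holds Kupffer cells (its resident macrophages), sinusoidal endothelial cells, stellate cells and lymphocytes, all of which contribute RNA to a whole-liver library. Levels below are CPM, which are shares of a library's counts scaled by the trimmed mean of M-values (TMM), in the order GCV 31, 33, 35 and VEH 27, 28, 29. Differences are log2 fold changes, GCV minus VEH, from edgeR's model of all 12 p16-3MR livers. Each standard error (SE) was derived from the model's test, as the absolute log2 fold change divided by the square root of the F statistic. They are levels of 3′-end reads per gene, so they compare livers within a gene.

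Total counts were 5005760 to 6101562 in the GCV livers and 6364540 to 7160172 in the VEH livers, and the groups did not overlap (two-sided exact permutation p = 0.1, the smallest that 3 against 3 allows). Genes with at least 1 count numbered 16870, 13409 and 16804 in the GCV livers and 17147, 17727 and 17542 in the VEH livers, again without overlap (exact permutation p = 0.1). Liver 33 stood apart from the other 5. Mitochondrially encoded genes took 64.0% of its counts, against 15.8% and 22.4% in GCV livers 31 and 35 and 13.3% to 21.7% in the VEH livers, a difference between groups that was smaller than the spread among the GCV livers (exact permutation p = 0.4). Only 1799979 of its counts fell on other genes, its 10 highest genes held 73.7% of all counts, and 3 counts in it, the floor used here, equal 2.32 CPM, against 0.378 to 0.578 CPM in the other livers. Floors cover counting error only, and PCR copies are not independent molecules. Many list counts and the genes that depend most on liver 33 are therefore also given without it.

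**Figure D1:**
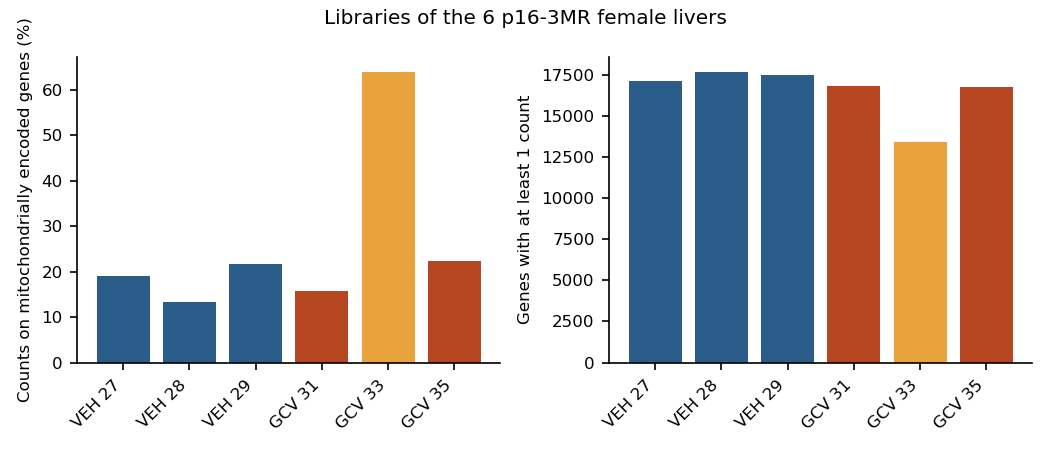
Share of counts on mitochondrially encoded genes (left, %) and number of genes with at least 1 count (right) in each of the 6 livers (bars; VEH blue, GCV red, GCV liver 33 orange). Liver 33 has the highest share, 64.0%, and the fewest genes, 13409.

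The liver identity of the samples was plain from hepatocyte products: all 14 listed (Alb, Ttr, Apoa1, Fgb and others) were detected in every liver, with summed levels of 149277 to 186738 CPM in the GCV livers and 126859 to 182093 CPM in the VEH livers. Skeletal muscle and mesothelium markers summed to at most 1.16 and 5.06 CPM in any of the 6 livers. Adipocyte markers were present and varied widely, at 29.9, 89.6 and 1255 CPM after GCV and 2155, 313 and 798 CPM after VEH, with overlap.

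The gene whose activity the model reports, Cdkn2a (chromosome 4, 89274471 to 89294653, minus strand, GRCm38), was close to the limit of detection. It had 0, 0 and 3 counts in the GCV livers and 1, 4 and 3 counts in the VEH livers, and the groups overlapped (log2 fold change -0.70 ± 1.38 SE, unadjusted p = 0.617). The gene also encodes p19Arf from exons shared with p16Ink4a, and 3′-end counts do not separate the transcripts. Reads of the transgene itself were not analysed here. Cdkn1a, which encodes the p53-induced inhibitor p21, was at 48.0, 66.4 and 1.51 CPM after GCV and 15.8, 16.9 and 12.1 CPM after VEH. GCV livers 31 and 33 lay above all VEH livers and liver 35 below them (log2 fold change 1.34 ± 0.89 SE, unadjusted p = 0.153; 0.66 without liver 33). Of the 7 cyclin-dependent kinase inhibitors listed, 4 had a mean of at least 10 counts over the 6 livers and none of these was free of overlap. Cdkn1b (p27) differed by -0.21 ± 0.33 SE and Cdkn2c (p18) by -0.55 ± 0.51 SE, both with overlap.

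Of the 21755 genes in the table, 0 (0%) had a Benjamini-Hochberg adjusted p under 0.05 by the quasi-likelihood test of edgeR. The lowest adjusted p was 0.646, or 0.842 without liver 33. At an unadjusted p under 0.05, 1098 genes (5.05%) were higher and 505 (2.32%) lower after GCV, and without liver 33 these were 530 (2.44%) and 468 (2.15%). DESeq2 called 70 genes higher (0.528% of the 13264 to which it gave an adjusted p) and 16 lower (0.121%), and the number depended on single livers: it was 28 without liver 33, 131 without liver 31, 780 without liver 35, and 26, 33 and 23 without VEH livers 27, 28 and 29. The genes below are therefore described by their levels, and those that DESeq2 called are named as such. None of them passed edgeR's adjusted test.

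A wider description counts genes whose 3 GCV livers all lay above, or all below, the 3 VEH livers, among the 11834 genes with a mean of at least 10 counts. There were 1077 such genes higher (9.1%) and 1121 lower (9.47%) after GCV. Without liver 33 the comparison is of 2 livers against 3, which is easier to meet, and gave 2123 genes higher (17.9%) and 1793 lower (15.2%). These are the shares against which the members of each gene list below should be read. The balance of higher and lower depended on the scaling. Scaled by library totals with no TMM factor, 74 genes were higher and 2982 lower, or 1028 and 3096 without liver 33, and the median log2 fold change of the 11834 genes moved from -0.05 to -0.62. The medians of the main lists are therefore also given relative to the median of all genes under that scaling.

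**Figure D2:**
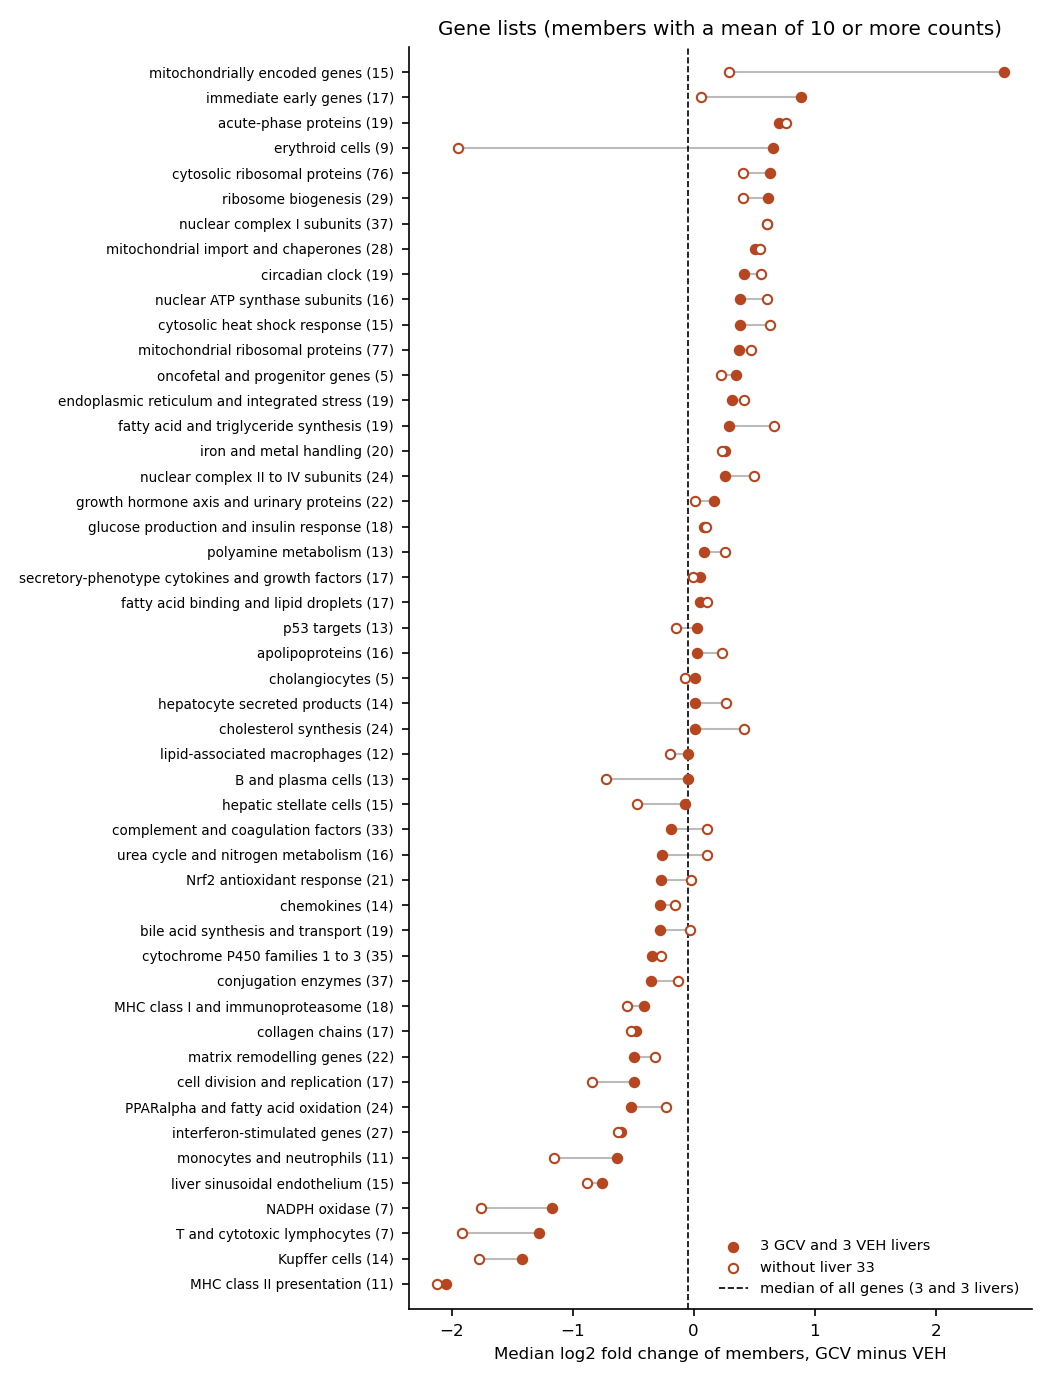
Median log2 fold change (GCV minus VEH) of each gene list with at least 5 members past a mean of 10 counts (number in brackets), with all 6 female livers (filled) and without liver 33 (open). The dashed line is the median of all 11834 genes, -0.05. MHC class II presentation is lowest (-2.05), and mitochondrially encoded genes are highest with liver 33 (2.56) and near 0.29 without it.

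MHC class II genes were mostly on the lower side after GCV. Genes for MHC class II, which loads peptides for CD4+ T cells on macrophages, dendritic cells and B cells, were lower in all 3 GCV livers for 8 of the 11 members with enough counts (of 12 listed), with and without liver 33, against 9.47% of all genes, or 15.2% without liver 33. The list median was -2.05 (-2.12 without liver 33), and relative to the median of all genes by library totals it was -2.04. Cd74, the invariant chain that guides class II molecules, was at 61.5, 60.2 and 75.3 CPM after GCV and 110, 159 and 666 CPM after VEH (log2 fold change -2.24 ± 0.99 SE, unadjusted p = 0.0404). H2-Ab1, a class II beta chain, was at 21.6, 13.1 and 24 CPM against 45.2, 63.7 and 218 CPM (-2.46 ± 0.88 SE, unadjusted p = 0.0146). The GCV livers lay close together in both genes, while VEH liver 29 was far above the other VEH livers. The same liver was highest for Ciita, the master regulator of class II transcription, with 1.74, 1.54 and 2.35 CPM after GCV and 4.29, 4.63 and 18.6 CPM after VEH. Summed over the 12 listed genes, the level was 192, 137 and 182 CPM after GCV and 291, 485 and 1506 CPM after VEH, and without VEH liver 29 the list median was -1.09. The genes of MHC class I and the immunoproteasome, which supply peptides to CD8+ T cells from most cell types, differed less, with 0 of 18 higher and 2 lower without overlap (1 and 3 without liver 33), against 9.1% and 9.47% of all genes (17.9% and 15.2% without liver 33). Their median was -0.41 (-0.55 without liver 33, -0.16 without VEH liver 29).

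Kupffer cell markers were lower after GCV in every member by the sign of the fitted difference (14 of 14, against 53.3% of all genes), and 5 of the 14 were free of overlap, 6 without liver 33. The list median was -1.42 (-1.78 without liver 33; -1.48 relative to all genes by library totals). Adgre1, which encodes the macrophage surface protein F4/80, was at 7.33, 8.50 and 5.53 CPM after GCV and 17.6, 47.5 and 32.7 CPM after VEH (-2.22 ± 0.98 SE, unadjusted p = 0.0411). Vsig4, a complement receptor of Kupffer cells, was at 27, 6.95 and 16.3 CPM against 42.6, 104 and 152 CPM (-2.54 ± 1.23 SE, unadjusted p = 0.0589). In both genes the 3 GCV livers lay below the lowest VEH liver, mouse 27. Liver 27 was also the VEH liver nearest to the GCV livers for Clec4f, the marker most particular to mouse Kupffer cells, which overlapped at 152, 51.0 and 39.7 CPM against 107, 217 and 342 CPM. Cd163, the haemoglobin scavenger receptor, had the lowest fitted difference of the list (-3.40 ± 1.16 SE, unadjusted p = 0.0113), yet GCV liver 31 at 7.90 CPM lay above VEH liver 27 at 3.22 CPM. Its difference was -4.36 to -1.97 with 1 female liver left out. Marco was in the 13.9 to 68.0 CPM range after GCV and at 24.1, 225 and 17.4 CPM after VEH, and its direction turned without VEH liver 28. In bulk libraries fewer cells of a type and less RNA per cell cannot be told apart.

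Lists of other leukocyte genes had few members without overlap. Of the 7 members of the phagocyte NADPH oxidase with enough counts 1 was lower without overlap, near the 9.47% of all genes, and 6 were lower by sign (7 without liver 33), against 53.3% of all genes by sign (53.4% without liver 33). The median was -1.17 (-1.76 without liver 33, -0.63 without VEH liver 29). Cybb, the catalytic subunit of the oxidase, was at 26.4, 23.2 and 10.2 CPM after GCV and 26.9, 88.3 and 150 CPM after VEH (-2.15 ± 1.16 SE, unadjusted p = 0.0859). The GCV livers were below VEH liver 27 by less than the spread among themselves. Monocyte and neutrophil markers showed no gene without overlap among 11, and their summed level was high in GCV liver 31 and VEH liver 28, at 3021 and 1330 CPM, against 94.9 to 553 CPM in the other 4. T and cytotoxic lymphocyte markers were sparse, with 7 of 17 past a mean of 10 counts. All 7 were lower by sign and 2, Cd3g and Trac, without overlap (3 without liver 33), with a median of -1.28 (-1.92 without liver 33, -0.66 without VEH liver 29). Cd8a, a co-receptor of cytotoxic T cells, was under that mean, with 1, 0 and 0 counts after GCV and 2, 11 and 39 counts after VEH. The GCV counts were all under a floor of 3 counts, which equals 2.32 CPM in liver 33, so no exact size of difference is given for it. Of the 13 B and plasma cell genes with enough counts 6 were higher and 7 lower by sign (4 and 9 without liver 33), 1 was higher and 2 lower without overlap (2 and 3 without liver 33), and the median was -0.05 (-0.73 without liver 33, -1.80 with limma-voom). The immunoglobulin genes Igkc and Ighm, made mostly by plasma cells and B cells, overlapped between the groups, and Ighm was higher without overlap when liver 33 was left out. Cd79a, part of the B cell receptor, was at 0.386, 1.54 and 1.34 CPM after GCV and 2.68, 4.20 and 15.2 CPM after VEH (-2.86 ± 0.83 SE, unadjusted p = 0.00417). Ms4a1 (CD20) overlapped between GCV liver 35 at 3.86 CPM and VEH liver 27 at 2.55 CPM. VEH liver 29 was highest in Cd8a, Cd79a and Ms4a1, and the summed level of the T cell markers was 103 CPM in it, against 9.90 to 22.3 CPM in the other 5 livers. The part of these lymphocyte levels in the class II result was not tested.

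Interferon-stimulated genes were also more often on the lower side. By sign 18 were lower and 9 higher (21 and 6 without liver 33), against 53.3% of all genes lower. Of 27, 6 (Gbp2, Gbp7, Irgm1, Iigp1 and Ifit2 among them) were lower without overlap and none higher, or 8 without liver 33, and the median was -0.60 (-0.62 without liver 33; -0.59 relative to all genes by library totals; -0.17 without GCV liver 35). The guanylate-binding protein gene Gbp7 was at 23.3, 21.6 and 27.5 CPM against 43.2, 72.1 and 101 CPM (-1.57 ± 0.47 SE, unadjusted p = 0.00501). Irgm1 and Iigp1, immunity-related GTPases that act on membranes around intracellular pathogens, were lower by 1.39 ± 0.43 SE and 1.63 ± 0.67 SE on the log2 scale. VEH liver 27 was the lowest VEH liver in all 3 genes. Gbp10 lay outside the list and was called by DESeq2 with all livers (adjusted p = 0.000481) and in each of the 6 fits that left out a female liver. It had 27, 0 and 49 counts after GCV and 204, 446 and 812 counts after VEH (-3.68 ± 0.75 SE). Near-identical Gbp genes neighbour it on chromosome 5 (105215699 to 105239533, minus strand), so reads could be split between them.

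Of the 14 chemokines with enough counts (of 27 listed), 3 were free of overlap, 2 lower and 1 higher. These counts are near the 9.47% and 9.1% of all genes. Cxcl9, which attracts activated T cells, was at 28.7, 6.18 and 35.9 CPM after GCV and 71.2, 80.7 and 197 CPM after VEH (-2.26 ± 0.73 SE, unadjusted p = 0.00775), and Cxcl10 was also lower without overlap (-1.71 ± 0.98 SE). Cxcl11, which the annotation classes as a polymorphic pseudogene, was higher without overlap at 8.29, 6.95 and 3.69 CPM against 3.62, 1.30 and 1.13 CPM.

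Sinusoidal endothelial cells line the liver capillaries and clear particles and waste molecules from blood. Their markers were lower without overlap for 7 of the 15 genes with enough counts (of 16 listed), 8 without liver 33, and none was higher. The median was -0.76 (-0.88 without liver 33; -0.89 relative to all genes by library totals). Dnase1l3, a secreted nuclease that degrades DNA in blood, was at 14.7, 20.9 and 24.3 CPM after GCV and 58.7, 42.7 and 43.2 CPM after VEH (-1.27 ± 0.32 SE). It was the only member that DESeq2 called (adjusted p = 0.0135), and the value without liver 33 was -1.36. Gpr182, a scavenging chemokine receptor, was at 6.75, 5.41 and 6.71 CPM against 14.7, 12.3 and 13.1 CPM (-1.07 ± 0.33 SE, unadjusted p = 0.00657). In both genes the livers of each group lay close together. Oit3 and Kdr, the latter the main receptor for vascular endothelial growth factor, were lower by 1.31 ± 0.48 SE and 1.01 ± 0.40 SE. Stab2, a scavenger receptor for hyaluronan, overlapped because liver 33 was high, at 20.8, 78.0 and 12.1 CPM against 43.8, 65.4 and 23.7 CPM, and was free of overlap without it (-0.30 with liver 33 and -1.49 without). Summed over all 16 markers, the level was 204 to 321 CPM after GCV and 353 to 485 CPM after VEH.

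**Figure D3:**
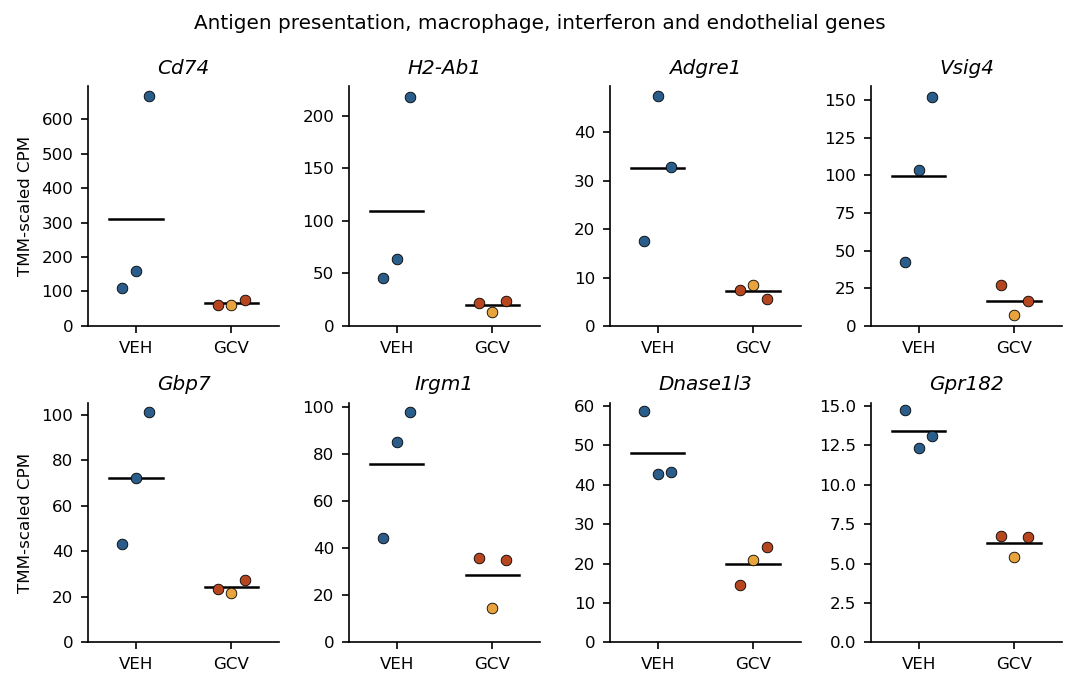
Level of 8 genes in each liver (points; TMM-scaled CPM on linear axes from 0; VEH blue, GCV red, GCV liver 33 orange; black lines are group means). In all 8 the highest GCV liver is below the lowest VEH liver; the VEH livers are spread widely for Cd74 (110 to 666 CPM) and closely for Gpr182 (12.3 to 14.7 CPM).

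Stellate cell genes stood on both sides and collagen genes mostly on the lower side. Stellate cells store vitamin A and make collagen when activated. Of 15 markers, 7 were higher and 8 lower by sign, 1 was higher and 4 lower without overlap (2 and 5 without liver 33), and the median was -0.07 (-0.47 without liver 33; -0.46 with limma-voom; -0.27 relative to all genes by library totals). Hgf, the hepatocyte growth factor, was at 2.31, 3.09 and 5.70 CPM against 12.3, 18.2 and 7.55 CPM (-1.74 ± 0.74 SE). VEH liver 29 was the nearest of its group to the GCV livers. Of the 17 collagen chains with enough counts, 3 were lower without overlap (7 without liver 33) and none higher, with a median of -0.47 (-0.52 without liver 33; -0.49 relative to all genes by library totals). Col5a3 was at 2.51, 3.09 and 2.52 CPM against 9.11, 15.2 and 4.91 CPM (-1.87 ± 0.58 SE, unadjusted p = 0.00637) and Col14a1 at 20, 2.32 and 36.2 CPM against 62.3, 63.4 and 41.3 CPM. The 3 and 7 chains compare with 9.47% and 15.2% of all genes.

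The lists with the most members on the higher side encoded mitochondrial and ribosomal proteins. Nuclear genes make most subunits of the respiratory chain, which passes electrons from complex I to complex IV and drives ATP synthase. Of the 37 complex I subunits with enough counts (of 38), 20 were higher without overlap, 33 without liver 33, and none lower, against 9.1% and 17.9% of all genes. The list median was 0.60 (0.61 without liver 33, 0.40 without VEH liver 28). By library totals no complex I gene was free of overlap with liver 33 and 24 were higher without it, and the median was not above 0 but 0.62 above that of all genes. Ndufa2 was at 72.7, 85.0 and 50.3 CPM after GCV and 26.7, 25.9 and 29.7 CPM after VEH (1.33 ± 0.45 SE, unadjusted p = 0.0102). Ndufb4 and Ndufa8 differed by 1.29 ± 0.52 SE and 1.05 ± 0.46 SE (0.87 and 1.02 without liver 33). For complexes II to IV 5 of 24 subunits were higher without overlap (19 without liver 33), and for ATP synthase 3 of 16 (11 without liver 33), with none lower in either list, though by library totals the medians of these lists were -0.18 and -0.06, which is 0.44 and 0.57 above that of all genes. Uqcrq, a small subunit of complex III, was at 537, 1113 and 352 CPM against 219, 197 and 237 CPM (1.62 ± 0.63 SE, 0.97 without liver 33). Cox6c of complex IV was at 414, 412 and 355 CPM against 184, 154 and 264 CPM, and Atp5e of ATP synthase at 222, 280 and 186 CPM against 95.4, 81.2 and 99.7 CPM. Liver 33 was the highest for Uqcrq and Atp5e, and livers 31 and 35 alone were also above all VEH livers.

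Genes for the import and translation machinery of mitochondria showed the same side. Of 28 import and chaperone genes 14 were higher without overlap (21 without liver 33) and none lower, with a median of 0.50 (0.55 without liver 33, 0.29 without GCV liver 31). Tomm20, a receptor of the outer membrane that recognises presequences, was at 83.5, 108 and 75.1 CPM after GCV and 40.5, 39.9 and 46.7 CPM after VEH (1.07 ± 0.30 SE, 0.84 without liver 33), and DESeq2 called it (adjusted p = 0.00532). Tomm22 and Timm8a1 differed by 1.36 ± 0.39 SE and 0.92 ± 0.31 SE (0.81 and 0.92 without liver 33). Of the 77 mitochondrial ribosomal proteins, 24 were higher and 1 lower without overlap, and 51 and 1 without liver 33. Mrpl52 was at 51.5, 54.1 and 39.6 CPM against 25.3, 18.8 and 21.5 CPM (1.14 ± 0.35 SE), and Mrpl54 at 24.3, 40.2 and 12.2 CPM against 7.77, 9.84 and 8.56 CPM (1.52 ± 0.41 SE, 1.00 without liver 33). By library totals the median of the import list was not above 0 and that of the mitochondrial ribosome list was -0.18, which is 0.62 and 0.44 above that of all genes, and with liver 33 none of their genes was higher without overlap.

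Cytosolic ribosomal proteins were higher without overlap for 44 of 76 genes with enough counts (of 77), 51 without liver 33, and none was lower (1 without liver 33). Unlike the respiratory chain genes, their median was larger with liver 33 (0.63) than without it (0.41), and by library totals 4 genes were higher and 2 lower without overlap, with a median of -0.14, which is 0.48 above that of all genes. Rpl27a was at 471, 1268 and 353 CPM after GCV and 194, 206 and 254 CPM after VEH (1.68 ± 0.50 SE, 0.85 without liver 33; DESeq2 adjusted p = 0.0324). Rps28 was at 268, 402 and 179 CPM against 101, 114 and 132 CPM (1.28 ± 0.40 SE, 0.88 without liver 33; DESeq2 adjusted p = 0.0399). Liver 33 was the highest of the 6 in both, and livers 31 and 35 were above every VEH liver. Ribosomal protein genes have many processed pseudogenes, and reads may be split between a gene and its copies. Among 29 genes of ribosome biogenesis, 11 were higher without overlap (16 without liver 33) and none lower, while by library totals none was free of overlap with liver 33 and the median was -0.12, which is 0.50 above that of all genes. Nop58, a core protein of the box C/D particles that methylate ribosomal RNA, was at 50.3, 64.9 and 46.5 CPM against 19.6, 21.6 and 25.2 CPM (1.28 ± 0.28 SE, 1.07 without liver 33). It was called by DESeq2 with all livers (adjusted p = 5.7e-05) and in each of the 6 fits that left out a female liver. Its partner Nop56 was at 39.9, 232 and 22.8 CPM against 12.6, 18.2 and 20.8 CPM, and the difference of 2.49 ± 0.67 SE was 0.80 without liver 33. Mitochondrially encoded genes, whose share of counts is given above, had a median of 2.56 with liver 33 and 0.29 without it (1.59 relative to all genes by library totals, with liver 33).

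**Figure D4:**
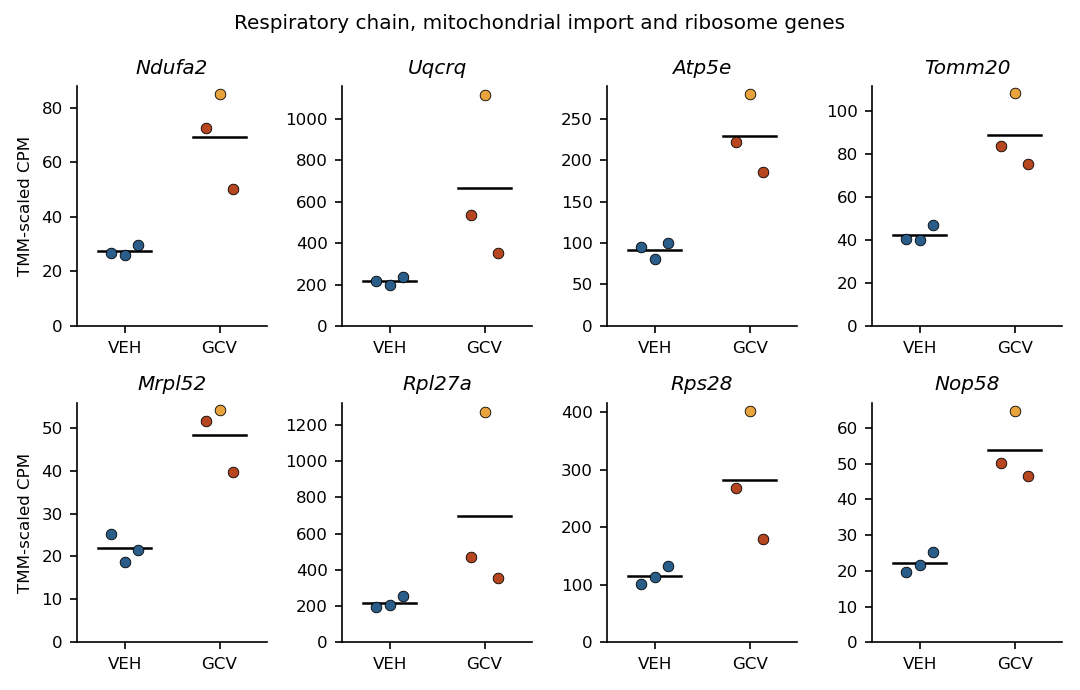
Level of 8 nuclear genes for respiratory chain, mitochondrial import and ribosome proteins in each liver (points; TMM-scaled CPM on linear axes from 0; VEH blue, GCV red, GCV liver 33 orange; black lines are group means). The lowest GCV liver is above the highest VEH liver in all 8, and liver 33 is far above the others for Uqcrq (1113 CPM) and Rpl27a (1268 CPM).

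Clock genes were free of overlap in both directions. In the liver clock, Arntl (BMAL1) and Clock activate the Per and Cry genes and the Nr1d genes through E-boxes, the products of the latter repress Arntl and Nfil3 through ROR elements, and Dbp and Tef act on D-boxes of output genes. The labels do not give the hour at which the livers were collected. The windows of 300 bases around a transcript start (RefSeq, GRCm38.p6; 17 of the 20 clock genes have one) are printed below for a gene higher after GCV with D-boxes and for 2 genes lower after GCV with a ROR element. Capitals mark matches to the D-box TTATGTAA or the ROR element TAGGTCA on either strand. Per3 is read from the minus strand of chr4:151044616-151044915, the second Arntl window from the plus strand of chr7:113207261-113207560 and Nfil3 from the minus strand of chr13:52980990-52981289.
Per3: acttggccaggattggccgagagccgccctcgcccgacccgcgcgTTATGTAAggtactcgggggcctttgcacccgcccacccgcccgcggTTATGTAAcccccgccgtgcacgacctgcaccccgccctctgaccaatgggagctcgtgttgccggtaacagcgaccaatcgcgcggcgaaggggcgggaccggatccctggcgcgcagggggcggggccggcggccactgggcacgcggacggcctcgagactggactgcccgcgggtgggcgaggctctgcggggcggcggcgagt
Arntl: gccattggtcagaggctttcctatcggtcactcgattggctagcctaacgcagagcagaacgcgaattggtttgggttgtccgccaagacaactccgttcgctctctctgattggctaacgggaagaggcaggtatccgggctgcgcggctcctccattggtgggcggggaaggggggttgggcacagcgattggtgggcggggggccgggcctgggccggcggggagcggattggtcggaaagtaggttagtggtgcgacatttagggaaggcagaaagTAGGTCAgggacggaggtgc
Nfil3: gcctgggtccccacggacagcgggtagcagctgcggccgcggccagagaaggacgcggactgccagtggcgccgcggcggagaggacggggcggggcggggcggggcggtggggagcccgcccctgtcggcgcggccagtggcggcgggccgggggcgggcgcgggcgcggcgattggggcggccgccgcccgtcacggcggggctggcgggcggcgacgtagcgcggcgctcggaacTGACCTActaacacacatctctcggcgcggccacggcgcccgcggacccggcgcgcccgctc
The D-box letters occur in the windows of 1.11% of all 27025 genes and, of the 17 clock genes, in Per3 only, with 2 matches. The ROR element occurs in 2.97% of genes and in Arntl and Nfil3 among the clock genes, and the E-box CACGTG in 8.09% of genes and 5 of the 17. A match in these letters is a description of the window and shows no binding.

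Of the 19 clock genes with enough counts, 4 were higher and 4 lower without overlap, against 9.1% and 9.47% of all genes. Without liver 33 they were 4 and 5, against 17.9% and 15.2%. By library totals 1 was higher and 5 lower, where 74 and 2982 of all 11834 genes were, so the 5 are near the share of all genes. Per3, whose window is printed above, was at 2.89, 8.50 and 17.3 CPM after GCV and 0.536, 2.60 and 1.01 CPM after VEH (2.79 ± 0.76 SE, unadjusted p = 0.00267). Per2, a repressor of the clock, was at 16.4, 13.1 and 28.3 CPM against 6.03, 5.21 and 4.15 CPM (1.92 ± 0.58 SE). Usp2, a deubiquitinase with strong daily rhythm in liver, was at 3.47, 28.6 and 39.9 CPM against 2.14, 2.17 and 2.39 CPM (3.41 ± 0.77 SE; DESeq2 adjusted p = 0.00823). The 3 genes and Bhlhe40 were the higher ones, and GCV liver 35 was the highest of the 6 livers in Per2, Per3 and Usp2. On the lower side Arntl was at 11, 6.95 and 1.01 CPM against 28.3, 15.2 and 24.7 CPM (-1.87 ± 0.70 SE, unadjusted p = 0.0186). Nfil3, a repressor that competes for D-boxes, was at 13.1, 8.50 and 5.20 CPM against 26.7, 16.6 and 29.2 CPM (-1.43 ± 0.65 SE). Clock and Rora were also lower without overlap (-0.76 ± 0.41 SE and -0.52 ± 0.46 SE). Liver 35 was thus at the far end in both directions for Per2, Per3, Arntl and Nfil3.

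The 3 GCV livers did not share a level of Dbp, Nr1d1 and Tef. Dbp was at 0.964, 61.0 and 100.5 CPM after GCV and 0.938, 2.46 and 1.51 CPM after VEH, so livers 33 and 35 were far above all VEH livers and liver 31 was among them (5.04 ± 1.45 SE; DESeq2 adjusted p = 0.019). Nr1d1 (REV-ERBα) had the same split, at 0.386, 70.3 and 70.1 CPM against 16.4, 31.4 and 7.43 CPM, and Tef was at 6.36, 78.8 and 77.5 CPM against 15.8, 22.1 and 15.2 CPM. Both genes overlapped because liver 31 was the lowest of the 6 livers. Liver 35, with 22.4% of counts on mitochondrially encoded genes, stood as high as liver 33 in all 3.

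**Figure D5:**
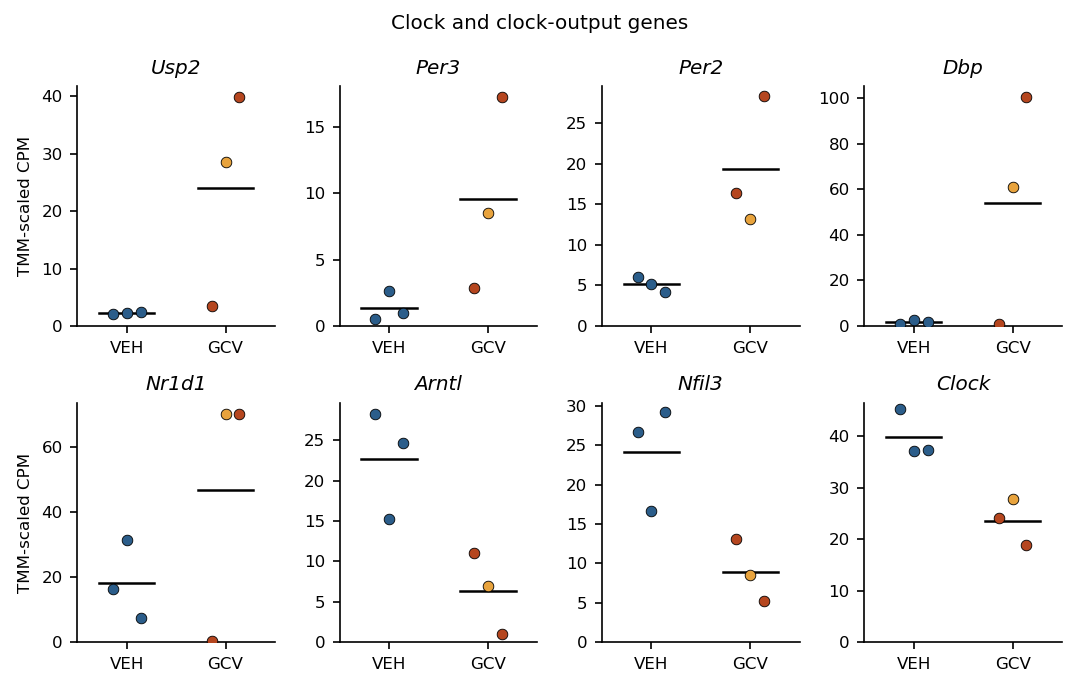
Level of 8 clock and clock-output genes in each liver (points; TMM-scaled CPM on linear axes from 0; VEH blue, GCV red, GCV liver 33 orange; black lines are group means). Usp2, Per3 and Per2 are higher and Arntl, Nfil3 and Clock lower in all 3 GCV livers, while for Dbp and Nr1d1 GCV liver 31 (0.964 and 0.386 CPM) lies at or below the VEH livers.

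Genes of the endoplasmic reticulum and integrated stress responses were higher without overlap for 5 of 19 members with enough counts and lower for 1, or 10 and 2 without liver 33, with a median of 0.31 (0.42 without liver 33, 0.09 without GCV liver 31; by library totals -0.26, which is 0.36 above all genes). Ddit3, which encodes the stress transcription factor CHOP, was at 20.8, 12.4 and 8.89 CPM after GCV and 5.09, 4.20 and 4.15 CPM after VEH (1.65 ± 0.50 SE, unadjusted p = 0.0055). Atf4, the central factor of the integrated response, was at 96.2, 275 and 43.6 CPM against 38.3, 35 and 38.5 CPM (1.88 ± 0.54 SE, 0.84 without liver 33). Creld2 and Herpud1, targets of the unfolded protein response, differed by 1.40 ± 0.50 SE and 1.14 ± 0.43 SE. The VEH livers lay within a narrow range in these genes and the GCV livers spread above them.

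Hepatocyte functions were mixed, and few members of their lists were free of overlap. Among 16 apolipoprotein genes 4 were higher without overlap and none lower. Apoa4, a component of lipoproteins and chylomicrons (chromosome 9, 46240696 to 46243459), was at 1720, 1961 and 723 CPM after GCV and 366, 387 and 278 CPM after VEH (2.09 ± 0.51 SE, 1.77 without liver 33). DESeq2 called it with all livers (adjusted p = 0.000238) and in each of the 6 fits that left out a female liver. Its neighbour Apoc3, an inhibitor of lipoprotein lipase, was at 2908, 4003 and 1445 CPM against 971, 624 and 749 CPM (1.83 ± 0.72 SE, unadjusted p = 0.0238). Apoa1 and Apoc2 were the other members higher without overlap. Apoa1, which lies in the same cluster as Apoa4 and Apoc3, differed by 0.40 ± 0.70 SE, less than its error.

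Among 35 cytochrome P450 genes of families 1 to 3, which oxidise drugs and steroids, 2 were higher and 3 lower without overlap. These counts are not above the 9.1% and 9.47% of all genes, so the genes below are single genes and not a result of the list. Cyp2c50 was at 1.93, 24.7 and 22.3 CPM after GCV and 252, 93.9 and 354 CPM after VEH (-3.86 ± 1.07 SE, -4.32 without liver 33; DESeq2 adjusted p = 0.0208), and its near-identical neighbour Cyp2c37 at 8.87, 34.8 and 145 CPM against 480, 147 and 498 CPM. Cyp2a4, a steroid hydroxylase that is usually higher in females, was at 1750, 1069 and 2982 CPM against 841, 523 and 575 CPM (1.58 ± 0.60 SE). Genes of these subfamilies are close copies of each other, so reads could be split between Cyp2c37 and Cyp2c50, and between Cyp2a4 and Cyp2a5. In bile acid synthesis Cyp8b1, the sterol 12-alpha-hydroxylase, was at 73.3, 14.7 and 21.1 CPM against 184, 80.9 and 73.8 CPM, and Hsd3b7 differed by -1.21 ± 0.73 SE, both without overlap. They and Nr0b2 were the 3 of 19 members free of overlap, all lower, against 9.47% of all genes. Srm, the spermidine synthase, was at 23.5, 14.7 and 22.8 CPM against 7.91, 6.51 and 6.29 CPM (1.57 ± 0.43 SE, 1.68 without liver 33; DESeq2 adjusted p = 0.049). Of the growth hormone axis, Cish, a feedback inhibitor induced by STAT5, was at 24.1, 55.6 and 11.4 CPM against 7.24, 8.10 and 5.41 CPM (2.1 ± 0.55 SE; DESeq2 adjusted p = 0.0462), and Stat5b was lower at 23.9, 17.0 and 14.4 CPM against 36.2, 31 and 33.6 CPM (-0.86 ± 0.31 SE). For both, the 3 livers of one treatment lay apart from the 3 of the other.

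Lists tied to senescence gave few genes without overlap. The shares of p53 targets and secretory factors that were lower exceeded the 9.47% of all genes, but these are 3 genes in each list. The list medians were not lower, at 0.03 and 0.05 (-0.14 and -0.003 without liver 33), against -0.05 for all genes. Of 13 p53 targets with enough counts 1 was higher and 3 lower, which compares with 9.1% and 9.47% of all genes. Gadd45a, a growth arrest gene, was at 5.98, 16.2 and 11.6 CPM after GCV and 5.23, 4.49 and 2.27 CPM after VEH (1.46 ± 0.55 SE), and Trp53inp1 was at 14.3, 23.2 and 28.5 CPM against 34.7, 35.3 and 41.4 CPM (-0.76 ± 0.34 SE). Of 17 secretory cytokines and growth factors 1 was higher and 3 lower without overlap (2 and 5 without liver 33), and the median was 0.05 (-0.50 without GCV liver 35). Their summed level was higher without overlap, at 1765, 1628 and 1503 CPM after GCV and 1277, 1340 and 1230 CPM after VEH. Vegfa, the higher one, was at 111, 389 and 104 CPM against 68.2, 67.3 and 62.0 CPM (1.61 ± 0.49 SE, 0.64 without liver 33). The lower ones with all livers were Hgf, Il1a and Tgfb1. The immediate early genes depended on liver 33, and their median was 0.89 with it and 0.06 without it. Without it 1 of 17 was higher and 3 (Fos, Klf6 and Gadd45b) lower without overlap, and with it only Jun was free of overlap, at 39.3, 86.5 and 13.8 CPM against 8.04, 13.6 and 8.81 CPM (2.17 ± 0.68 SE, 1.32 without liver 33).

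Genes with the largest differences were taken from those without overlap that also had an unadjusted p under 0.05 with and without liver 33, which left 200 genes higher and 190 lower, of which 176 and 169 have established names. The 12 highest by the smaller of the 2 fitted differences were Ptges, Gldn, Ankrd37, Hdhd2, Usp2, Nrg4, Per3, Spaca6, Ung, Tsku, Mpp4 and Rn7s6, with log2 fold changes from 2.29 (Mpp4) to 6.60 (Ptges). Ptges, an inducible prostaglandin E synthase, had 36, 33 and 6 counts after GCV and 2, 0 and 0 counts after VEH. The VEH counts were under the floor of 3 counts, so neither 6.60 nor the rank of Ptges is exact. Its fitted difference was 5.15 to 9.08 with 1 female liver left out. Nrg4, a growth factor that signals through ErbB receptors (chromosome 9, 55220222 to 55326844, minus strand), was at 11.6, 23.2 and 20.6 CPM against 2.55, 1.01 and 1.89 CPM (3.32 ± 0.57 SE, 3.08 without liver 33). It had the lowest unadjusted p of the genes named here (4.67e-05), and DESeq2 called it with all livers (adjusted p = 2.18e-05) and in each of the 6 fits that left out a female liver. Tsku, a secreted protein made by the liver, was at 68.1, 68.0 and 42.4 CPM against 20.1, 6.37 and 9.06 CPM (2.32 ± 0.60 SE; DESeq2 adjusted p = 0.0371). For all 3 genes the lowest GCV liver was above the highest VEH liver.

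The 12 lowest were Sept2, Fcrl5, Bcl2a1a, Cyp2c50, Zfp982, Tlr9, Ly9, Gbp10, Fcmr, Serpinb1a, Art2b and Cd79a. Fcrl5, a receptor-like protein of B cells, had 0, 0 and 0 counts after GCV and 6, 19 and 107 counts after VEH, most of them in VEH liver 29. Ly9, a lymphocyte surface receptor, was at 0.386, 0.772 and 1.01 CPM against 3.49, 7.38 and 14.7 CPM (-3.54 ± 1.28 SE), and Tlr9, which senses DNA in endosomes, had 0, 0 and 3 counts against 16, 14 and 43. VEH liver 29 was the highest in each of the 3. Serpinb1a, an inhibitor of neutrophil proteases, was at 1.74, 0.772 and 10.4 CPM against 81.4, 14.5 and 38.1 CPM (-3.22 ± 0.90 SE; DESeq2 adjusted p = 0.049). With 1 female liver left out the difference was -4.94 to -2.47. The Sept2 entry had 0, 0 and 0 counts against 193, 111 and 118, but the annotation holds 2 overlapping Sept2 genes on chromosome 1, and the other (93478964 to 93510260) was on the higher side at 116, 113 and 96.8 CPM against 51.6, 76.4 and 61.2 CPM. The estimated counts could thus be divided between the 2 entries.

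DESeq2 made 6 calls that stood with all livers and with each female liver left out: Nop58, Apoa4, Nrg4 and Gbp10, described above, and Gm9843 and Ugt1a8. Gm9843, a processed pseudogene on chromosome 16, had 0, 0 and 0 counts after GCV and 237, 78 and 279 after VEH, at least 108-fold lower against a floor of 3 counts over the GCV group. Ugt1a8 had 2399, 112 and 0 counts after GCV and 0 in each VEH liver, so its groups overlapped. The Ugt1a genes share their last exons, which is where 3′-end reads fall, and a value for 1 of them is uncertain.

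Most of the 86 DESeq2 calls were lost when liver 33 or any VEH liver was left out: 16 were shared without liver 33 and 22, 23 and 21 without VEH livers 27, 28 and 29, against 52 and 83 without GCV livers 31 and 35. Without liver 33 the groups overlapped in 15 of the 70 and in none of the 16 lower calls, and none of the 86 turned direction. Leaving out a liver can end an overlap but not create one, so this overlap shows no dependence on liver 33. At a mean of at least 10 counts, 66 calls were free of overlap with all livers and 67 without liver 33. Gm29216, an annotated pseudogene on chromosome 1 (24615706 to 24616197) in a stretch known as a nuclear copy of mitochondrial DNA, had 15039, 66905 and 1585 counts against 5289, 2389 and 6910, and its difference of 4.83 was 1.2 without liver 33. Rpph1, the RNA of ribonuclease P, had 85, 240 and 27 counts against 18, 21 and 47 (4.14, or 1.38 without liver 33). Ankrd37, a hypoxia-responsive gene, was at 12.9, 134 and 2.01 CPM against 0, 1.01 and 0.755 CPM and differed by 6.31 with and 3.55 without liver 33, free of overlap in either case. In these 3 genes liver 33 was the highest of the 6.

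The response of the females was compared with that of the p16-3MR males, 3 GCV and 3 VEH livers, by edgeR's test of the difference between the sexes. It called 0 genes (0%) at an adjusted p under 0.05 (lowest 0.976), while 822 genes (3.78%) had an unadjusted p under 0.05. DESeq2 called 3 genes: Apoa4, Gm9843 and Rps12-ps9, the last a pseudogene with 208 counts in GCV liver 31 and 0 in the other 5 female livers. The 3 genes with the lowest edgeR p for this difference were Cidec, Gm13212 and Slc22a26, the lowest being 0.000488 for Cidec. Cidec, a lipid droplet protein, had 11, 0 and 4 counts in the female GCV livers and 0 in each female VEH liver, while male levels were 0.141, 0.390 and 0.768 CPM after GCV and 1.40, 2.14 and 7.66 CPM after VEH. Gm13212 had 1, 0 and 3 counts against 22, 28 and 31. Slc22a26, a transporter, was at 186, 69.5 and 184 CPM against 185, 188 and 206 CPM in females, where the groups overlapped, and at 53.5, 4.39 and 28.6 CPM against 2.22, 2.50 and 1.56 CPM in males, where they did not. Among the genes described above, H2-Ab1 differed by -4.08 between females and males (unadjusted p = 0.00498) and Nrg4 by 2.76 (unadjusted p = 0.00289), neither past adjustment. The list medians of males stood on the other side for MHC class II (1.56, against -2.05 in females), Kupffer cells (0.99 against -1.42) and collagen chains (1.16 against -0.47), and on the same side for sinusoidal endothelium (-0.25 against -0.76) and cytosolic ribosomal proteins (0.47 against 0.63). Rps28 was at 185, 310.2 and 229 CPM in the male GCV livers and 123, 131 and 99.3 CPM in the male VEH livers (1.04, unadjusted p = 0.0218). The male groups overlapped in the summed level of the class II and Kupffer cell lists, with GCV liver 32 and VEH liver 24 far above the others of their group. MHC class II summed to 858, 3936 and 199 CPM in male GCV livers 30, 32 and 34 and to 1212, 325 and 151 CPM in male VEH livers 24, 25 and 26, and Kupffer cell markers to 1812, 6146 and 414 CPM against 3399, 586 and 329 CPM. Collagen chains summed to 712, 2057 and 677 CPM in the same male GCV livers against 772, 797 and 953 CPM in the male VEH livers. Male GCV livers 30 and 34 thus lay below all male VEH livers, and liver 32 far above them. Differences between the sexes in these medians were not tested.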

How the data were processed

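RNA of 6 female p16-3MR livers (3 GCV, 3 VEH) was analysed from a table of 12 p16-3MR livers, and all of its 12 columns were used. Per the labels, Smart-3SEQ (3′-end) libraries were made from total RNA. The submitters' processing notes name FastQC 0.11.9, Trim Galore 0.6.10, Salmon 1.10.3 and mm10. Each deposited value is an estimated count of 1 Ensembl gene in 1 liver, made by the authors with Salmon and tximport and not scaled for library size, with genes under 3 reads removed by the authors. The counts are whole numbers as deposited. Symbols and positions came from GENCODE vM21 (GRCm38), and promoter windows from RefSeq (GRCm38.p6). GENCODE named 21698 of 21755 genes and left 57 unnamed.

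The tests were made in R 4.3.3 with edgeR 4.0.16 (TMM scaling, 1 mean per sex and treatment over the 12 p16-3MR livers, two-sided quasi-likelihood test, Benjamini-Hochberg adjustment over all genes), with Python 3.11.15, pandas 2.3.3, numpy 2.4.6 and matplotlib 3.10.9. Alternatives were DESeq2 1.42.0, limma 3.58.1 (voom with quality weights), other size factors, library totals, a filter on low counts, other minimum means (5 and 20), the table without mitochondrially encoded genes, the 6 female livers alone, an adjusted threshold of 0.1 and each female liver left out. The pipeline was tested on simulated data. The members, the 54 gene lists and the rules were chosen with earlier results of these data known. Named genes were Cdkn2a and Cdkn1a, the 12 per direction with the largest difference (as given where they are named), genes that DESeq2 called in every fit, list members without overlap with and without liver 33 (up to 5 by p, and the first 2 as listed), DESeq2 calls whose groups overlapped without liver 33, and the 3 with the lowest p between the sexes. Other genes and list members in the text were chosen after their values were seen. Predicted genes were left out of the 12. DESeq2 with single livers left out and list medians by library totals were added after the data were seen. Some list members are not reported here.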

Additional observations from a re-analysis of the deposited data

Results flagged for a closer look

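Apoa4 was noted because the sexes moved apart without overlap. In females all 3 GCV livers were above all 3 VEH livers (log2 fold change 2.09), and in males all 3 GCV livers were below all 3 VEH livers (-0.74), at 482, 373 and 420 CPM after GCV and 944, 604 and 580 CPM after VEH. The difference between the sexes was 2.83 on the log2 scale, with an unadjusted edgeR p of 0.00144 and an adjusted p of 0.976, while DESeq2 called it at an adjusted p of 0.00274. Only the genes named in the text were screened in this way.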

How the results depend on the processing

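No paired analysis was possible because the GCV and VEH females share no replicate numbers (31, 33 and 35 against 27, 28 and 29). The count of genes at an adjusted p under 0.05, which was 0 with edgeR, was 86 with DESeq2, 7 with limma-voom and 3 with edgeR on the 6 female livers alone (Gm9843, Gm7536 and Sept2, each at 0 in the 3 GCV livers). With DESeq2 it was 131, 28 and 780 without GCV livers 31, 33 and 35 and 26, 33 and 23 without VEH livers 27, 28 and 29. With edgeR and 1 liver left out it was 0 each time. The cause was not tested. Genes at an unadjusted p under 0.05 numbered 1694 higher and 871 lower with limma-voom, and 530 to 1675 higher and 332 to 1029 lower with 1 liver left out. Genes without overlap numbered 74 higher and 2982 lower by library totals, and 1334 to 2123 higher and 1467 to 2760 lower with 1 liver left out, where fewer livers make non-overlap easier to meet. The difference between the sexes called 3 genes with DESeq2. Gene values turned direction in 6 settings: Nr1d1 with limma-voom (-2.05), and, with 1 liver left out, Marco (range -1.71 to 0.92), Stab2 (-1.49 to 0.13), Orm1 (-0.15 to 2.41) and Lcn2 (-1.0 to 4.13). No gene lost a call, since edgeR made none. Of the settings tried for list medians, 57 moved the median by more than 1 SD between livers and 618 did not. Without GCV liver 31 the medians of mitochondrial ribosomal proteins, mitochondrial import, complexes II to IV and endoplasmic reticulum stress were 0.21, 0.29, 0.05 and 0.09, and without VEH liver 28 those of complex I, ATP synthase and clock genes were 0.40, 0.21 and 0.12. The clock median, 0.42 in the main fit, turned to -0.11 with limma-voom. Depth is a limit in liver 33, where 3 counts equal 2.32 CPM, and p-values rest on 3 livers per group.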

Other observations

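Acute-phase proteins, which hepatocytes secrete in inflammation, were high in 1 liver of each treatment. Their summed level was 110582, 23154 and 16188 CPM after GCV and 15913, 52322 and 16274 CPM after VEH, and none of the 19 members was free of overlap. Orm1, an acid glycoprotein, was at 10822, 1817 and 801 CPM against 740.3, 2751 and 859 CPM. Lcn2, an iron-sequestering protein of inflamed hepatocytes and neutrophils, was at 2822, 249 and 23.3 CPM against 44.0, 699 and 68.0 CPM. GCV liver 31 and VEH liver 28 were the highest of their groups in both genes, and both fitted differences turned from higher to lower without liver 31 (-0.15 for Orm1 and -1.0 for Lcn2).

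Erythroid markers summed to 61.1, 2462 and 289 CPM after GCV and 264, 1223 and 284 CPM after VEH, so liver 33 held the highest level. The list median was 0.66 with liver 33 and -1.95 without it (-0.38 relative to all genes by library totals, with liver 33).

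Genes for cholesterol synthesis and for fatty acid and triglyceride synthesis had no member free of overlap with liver 33 and 6 higher in each list without it, of 24 and 19. Their medians were 0.01 and 0.29 with liver 33 and 0.41 and 0.66 without it, and 0.30 and 0.59 relative to all genes by library totals with liver 33. Both medians also turned below 0 with another liver left out, cholesterol synthesis to -0.41 without GCV liver 31 and fatty acid and triglyceride synthesis to -0.23 without GCV liver 35. Cytosolic heat shock genes likewise had 0 of 15 free of overlap with liver 33 and 7 higher without it.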
